A study of Mus musculus with 23 samples.

Results

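The genes described here encode 10 subunits of the BAF (SWI/SNF) chromatin remodellers, and the values are the crosslink sites called on their RNAs in CTCF iCLIP2 from mouse cells. The genes are Smarca4, Smarca2, Arid1a, Arid1b, Arid2, Pbrm1, Smarcc1, Smarcb1, Smarcd1 and Brd9, chosen by name from the 55413 genes of GENCODE mouse release M21, and a site belongs to a gene when it lies inside the gene body on the gene's strand. No site of these genes lay in a further gene on the same strand. Together they held 783 of the 429119 genic sites called in embryonic stem cells (ESCs) with the wild-type protein, which is 0.182% (95% Wilson interval 0.170% to 0.196%).

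In iCLIP2, UV light links a protein to the RNA it touches, and reverse transcription stops beside the linked nucleotide, so that each called site is a single base. All groups were E14 ESCs carrying the CTCF-AID2 degron, or neural progenitor cells (NPCs) after 2 days of differentiation from the same lines, and all received 1 µM 5-Ph-IAA to remove endogenous CTCF and 1 µg/mL doxycycline to induce a Flag-Halo-tagged rescue CTCF for 24 hours. The rescue was either WT or lacked a stretch of zinc finger 1 (ΔZF1), and UV at 254 nm and 400 mJ/cm2 was given on the plate before anti-Flag immunoprecipitation from nuclei. The 23 libraries made 6 groups, namely WT, ΔZF1 and noXL (WT without UV) in either cell type, with 3 libraries for NPC WT and 4 for every other group. Both noXL groups came from the WT rescue line, so the ΔZF1 line has no control of its own among the samples used here.

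The libraries of a group were merged before sites were called, so each group is 1 list, no value has a replicate error and no test between conditions was possible. All intervals are at 95%, by Wilson's method for shares and ratios and exact Poisson for counts, and they hold counting error alone. The lists held 107227 to 451137 sites, of which 94.0% to 96.7% were genic, and the read depth behind them is unknown. A site count rises with the amount of an RNA, with its contact with CTCF and with depth, and these cannot be told apart here. Comparisons that use the same list, such as ΔZF1 to WT and WT to noXL, share its sites and are not independent of each other. The ESC markers Esrrb and Tfcp2l1 went from 460 and 343 sites in ESC WT to 0 and 5 in NPC WT, and the progenitor marker Nes went from 2 to 28. The UV lists held 0 sites in the progenitor markers Zic1, Hes5, Pax6 and Sox1, so they do not mark the NPC lists in these data.

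BAF complexes use the energy of ATP to slide or evict nucleosomes and so open chromatin. They come as canonical BAF with an ARID1 subunit, as PBAF with ARID2 and PBRM1, and as non-canonical BAF with BRD9, all around a shared ATPase and scaffold, while SMARCB1 is a core subunit of the first pair of forms and is absent from non-canonical BAF. Embryonic stem cells run a BAF built on the ATPase BRG1 (Smarca4) and the core subunit BAF155 (Smarcc1), and subunits are exchanged as cells become neural progenitors and then neurons.

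The following 21-nt windows show, for each gene, what a contact looks like at the base. Each is centred on the ESC WT site with the highest PureCLIP score among sites on a uridine that had no noXL site within 5 nt. They read 5′ to 3′ on the gene's strand of mm10, with the linked base in capitals and uridine written as T. Smarca2 had no site and has no window.
Smarca4, exon 4, coding, chr9:21635686-21635706, plus strand: caaccccattTaaccagaacc
Smarcc1, exon 1, coding, chr9:110132230-110132250, plus strand: cagcaagtttTgggagagccc
Smarcd1, exon 1, 5′ UTR, chr15:99702282-99702302, plus strand: ttccggttctTtgtgcagctg
Smarcb1, exon 4, coding, chr10:75911519-75911539, minus strand: gaagagaaccTtccccttgtg
Arid1a, exon 20, 3′ UTR, chr4:133679531-133679551, minus strand: tagacctggtTttaaccttta
Arid1b, intron 4, chr17:5134315-5134335, plus strand: agtttacatgTgtgcatttta
Arid2, intron 4, chr15:96351499-96351519, plus strand: gatgtggcttTggcgtttttg
Pbrm1, exon 23, coding, chr14:31084862-31084882, plus strand: ccaaatctttTaagaaaatta
Brd9, exon 16, 3′ UTR, chr13:73960375-73960395, plus strand: acattttattTgatacagttt
For contrast, the last window holds an Arid1a site called at the same nucleotide in both noXL lists, with scores of 24.1 and 1.13 in ESCs and NPCs, on a cytosine of intron 1; ESC ΔZF1 also had a site within 5 nt of it, of score 7.20.
Arid1a without UV, intron 1, chr4:133745567-133745587, minus strand: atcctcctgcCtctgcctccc
The Smarcc1 and Smarcd1 windows recurred across lists. The Smarcc1 site scored 42.5 in ESC WT, and the best site within 5 nt scored 0.150 in ESC ΔZF1, 10.7 in NPC ΔZF1 and 33.5 in NPC WT. The Smarcd1 site scored 26.5 in ESC WT, with a best nearby score of 28.5 in ESC ΔZF1 and 16.4 in NPC WT and no site near it in NPC ΔZF1. Smarca4 had a nearby site of score 3.26 in NPC WT, and the windows of the other genes had no nearby site in another list.

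The sites fell very unevenly over the 10 genes. Smarca4, on chromosome 9 from 21616169 to 21704230, encodes the ATPase BRG1 and held 94 sites with WT, 64 with ΔZF1 and 64 without UV in ESCs, and 64, 40 and 56 in NPCs. Its paralogue Smarca2, on chromosome 19 from 26605050 to 26778322, encodes the alternative ATPase BRM and held 0 sites in all 6 lists, where 3 sites a list were taken as the limit that a count of 0 allows, or 0.699 per 100000 genic sites in ESC WT and 2.94 in NPC noXL. The upper ends of the exact Poisson intervals are somewhat higher, at 0.860 and 3.62. All sites on an ATPase RNA were thus on Smarca4, in the lists made with and without UV.

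The core genes Smarcc1, Smarcd1 and Smarcb1 had sites in every list. Smarcc1, on chromosome 9 from 110117708 to 110240178, encodes the scaffold BAF155 on which the complex is built and held 165 sites with WT, 79 with ΔZF1 and 73 without UV in ESCs, and 85, 57 and 45 in NPCs. Smarcd1, on chromosome 15 from 99702129 to 99713991, encodes the core subunit BAF60A and held 54, 34 and 16 sites in the ESC lists in the same order and 33, 19 and 15 in the NPC lists. Smarcb1, on chromosome 10 from 75896769 to 75921617, encodes the core subunit that contacts the nucleosome's acidic patch and held 40, 26 and 16 sites in ESCs and 25, 19 and 11 in NPCs. In all of them the WT list of a cell type had the most sites, ΔZF1 fewer and noXL the fewest. The lists themselves had the same order of length. Per 100000 genic sites the order did not hold for any of these genes. Smarcc1 then stood at 38.5, 36.3 and 48.4 in ESCs and at 36.9, 37.2 and 44.1 in NPCs. In ESCs Smarcd1 and Smarcb1 were highest with ΔZF1, at 15.6 and 11.9.

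The ARID subunits of canonical BAF had very different numbers of sites. Arid1a, on chromosome 4 from 133679008 to 133756769, encodes the main ARID subunit of canonical BAF and held 226, 127 and 111 sites in the ESC lists and 171, 109 and 82 in the NPC lists, again in the order WT, ΔZF1 and noXL. Its alternative Arid1b, on chromosome 17 from 4994332 to 5347656, held 2, 11 and 9 sites in ESCs and 6, 27 and 11 in NPCs, so that both WT lists held fewer Arid1b sites than the noXL list of the same cells. This order, with WT lowest, was seen in both cell types for Arid1b alone among the 9 genes with sites.

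The PBAF genes and Brd9 complete the list. Arid2, on chromosome 15 from 96287518 to 96404992, encodes the ARID subunit of PBAF and held 71, 36 and 35 sites in ESCs and 118, 87 and 55 in NPCs. Pbrm1, on chromosome 14 from 31019138 to 31121592, encodes the PBAF subunit with many bromodomains and held 124, 74 and 36 sites in ESCs and 94, 68 and 39 in NPCs. Arid2 was the only gene with over 20 sites in ESC WT that had more sites in each NPC list than in the ESC list of the same kind. Brd9, on chromosome 13 from 73937811 to 73960895, encodes the bromodomain subunit of non-canonical BAF and held 3 to 9 sites a list.

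**Figure D1:**
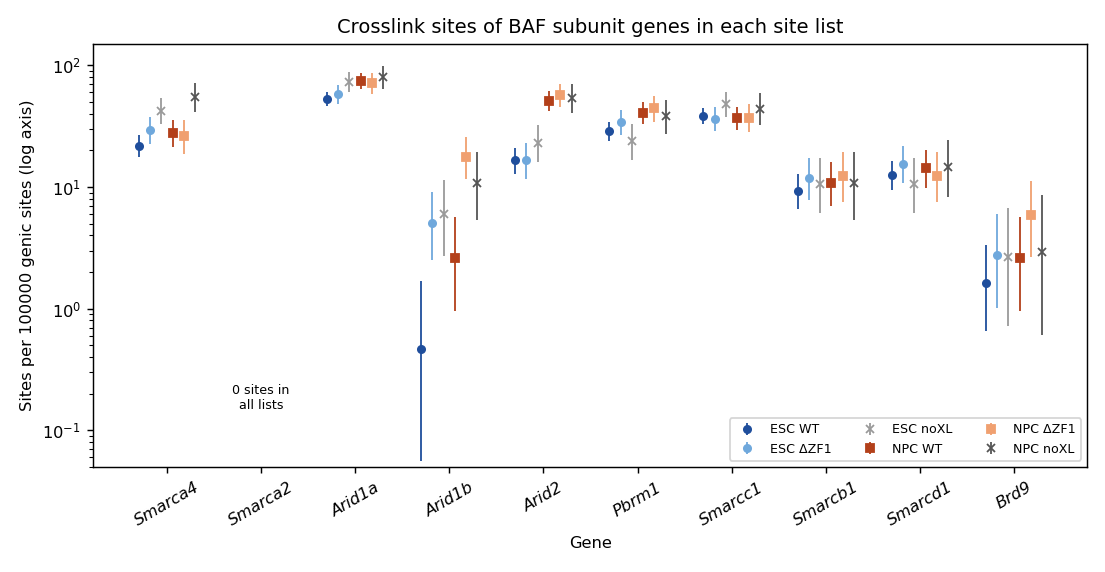
Sites of each gene per 100000 genic sites of a list (vertical log axis), with 95% exact Poisson intervals, in the 6 lists. Arid2 stood at 16.5 in both ESC UV lists and at 51.3 to 56.8 in the 3 NPC lists, Arid1b was lowest in the WT list of each cell type, and Smarca2 had 0 sites; heights of different genes are not comparable because the genes differ in length.

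Per exon length the genes could be set against each other. In ESC WT, Smarcd1 held 3.01 exon sites per 100000 genic sites and kb of exon (2.25 to 3.95), Pbrm1 2.95, Smarcc1 2.77, Smarca4 2.74 and Arid1a 2.36, and the intervals of these neighbours overlapped. Arid2 at 1.11 (0.824 to 1.46) and Smarcb1 at 0.852 (0.571 to 1.22) also overlapped each other but lay below those genes. Brd9 held 0.235 (0.0944 to 0.484), and Arid1b had no exon site in ESC WT. The median of the 7808 protein-coding genes with at least 5 sites was 1.67, so that 5 of the 10 genes were above it. The same 5 genes were also above the median of 1.56 in ESC noXL, from Smarcd1 at 2.14 to Smarca4 at 3.07. A density above the median was thus not particular to the UV list. In NPC WT the density of Arid2 was 2.43 (1.85 to 3.13), above the median of 1.81 over 7330 genes, while Smarcb1 was at 1.10 and Brd9 at 0.313. Arid2 was above the median of 1.63 in NPC noXL as well, at 2.28.

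The comparison of ΔZF1 with WT asks whether removing part of zinc finger 1 changed which of these RNAs were linked. In ESCs the genes together held 457 sites with ΔZF1 and 783 with WT, a ratio of 0.584, and after scaling to the genic sites of each list the log2 ratio was 0.20 (0.04 to 0.37). All log2 ratios below are scaled in this way, with a pseudocount of 1 for single genes, and a gene is counted as past a limit at 1 or -1 when it has at least 20 sites in both lists together. Of the 7 genes with enough sites in ESCs, 0 were past a limit in either direction, where 6.84% of all 6518 genes tested were higher and 5.45% lower. Their values ran from -0.07 for Smarcc1 to 0.43 for Smarca4, with a median of 0.24 beside 0.04 over all genes, and each of the 7 intervals included 0. As a group the RNAs of the ATPase, the core, ARID1A and PBAF thus had slightly more of the ESC ΔZF1 list than of the WT list, with 6 of 7 above 0, while no single gene differed beyond its interval. The sum was -0.026 when intron sites alone were taken. The medians of the chromosomes that hold these 7 genes ran from -0.02 to 0.14, and that of chromosome 11, which holds none of them, was -0.47.

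In NPCs the summed log2 ratio of ΔZF1 to WT was 0.12 (-0.06 to 0.30), from 435 and 602 sites. Here 1 of 8 genes was higher, beside 5.76% of all 5274 genes, and 0 were lower, beside 7.36%. The gene was Arid1b, whose 27 sites in NPC ΔZF1 against 6 in NPC WT gave 2.59 (1.52 to 3.99). It reached the minimum of 20 sites only through the list in which it was high, so its count is a description, and it fell under the minimum when uridine, exon or intron sites were taken alone. Of the 27 sites 18 were intronic, 10 of them in intron 4 and 4 each in introns 2 and 9, while all 6 NPC WT sites were in exons. In ESCs the 11 Arid1b sites with ΔZF1 against 2 with WT were too few to enter the count, and 10 of the 11 were in coding exons. The 27 sites were on uridine in 15 cases, and 2 of them lay within 5 nt of an NPC WT site. The difference of the ΔZF1 to WT ratio between NPCs and ESCs had an interval that included 0 for every gene with sites, and was -0.08 (-0.33 to 0.16) for the sum.

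The comparison of NPCs with ESCs asks which RNAs gained or lost contacts on differentiation. Their 602 NPC sites against 783 ESC sites with WT are an unscaled ratio of 0.769, and the scaled log2 ratio was 0.52 (0.37 to 0.67), and 0.34 (0.18 to 0.51) without Arid2, a sum added after the data were seen. Of 7 genes 1 was higher, beside 11.5% of all 6730 genes, and 0 were lower, beside 10.4%. That gene was Arid2, with 1.62 (1.21 to 2.05). It was under the limit without scaling, at 0.72, and just under it with exon sites alone. Arid1a at 0.50 (0.21 to 0.78) and Pbrm1 at 0.50 (0.11 to 0.88) had intervals above 0 without reaching the limit, and Smarcc1, which had the fewest NPC sites for its ESC sites, was at -0.05 (-0.43 to 0.32).

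The other pairs of lists showed Arid2 in the same direction. With ΔZF1, 2 of 8 genes were higher in NPCs, Arid2 at 1.76 (1.22 to 2.34) and Arid1b at 1.73 (0.81 to 2.79), the latter again measured through its NPC ΔZF1 sites, and 0 were lower, beside 10.9% and 14.1% of all 5113 genes. Without UV, 1 of 8 was higher, Arid2 at 1.20 (0.61 to 1.82), and 0 were lower, beside 11.1% and 12.3% of all 3726 genes. The Arid2 ratio of WT exceeded that of noXL by 0.42 (-0.33 to 1.16), so a difference between the lists made with and without UV was not detectable at this number of sites. For the sum of the genes the same difference was 0.15 (-0.11 to 0.42).

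**Figure D2:**
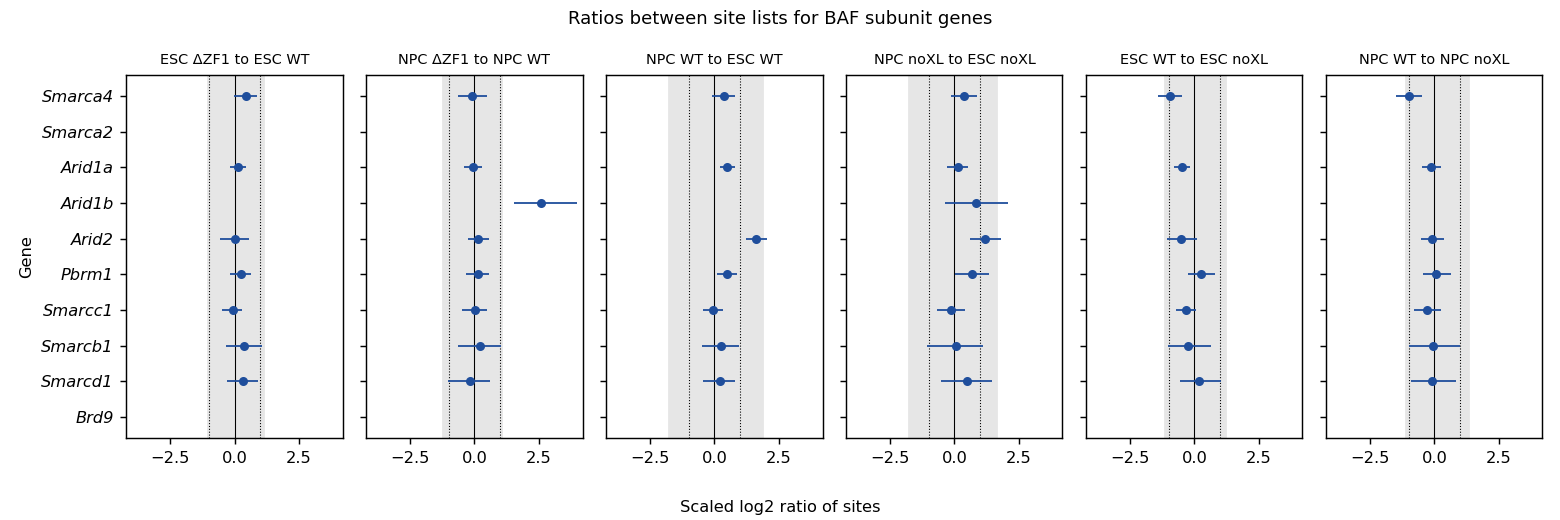
Scaled log2 ratios (horizontal axes) of the BAF genes that had 20 sites or more over both lists, in 6 comparisons, with 95% intervals from counting error. Grey bands span the 5th to 95th percentile of all genes tested and dotted lines mark 1 and -1; Arid2 lies beyond 1 in NPCs against ESCs both for WT (1.62) and for noXL (1.20), and Arid1b at 2.59 for NPC ΔZF1 to NPC WT.

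Arid2 gained sites in NPCs in its introns and, for WT and ΔZF1, in its exons. Its introns held 20 sites with WT, 5 with ΔZF1 and 7 without UV in ESCs, and 58, 40 and 30 in NPCs. Its exons held 51, 31 and 28 sites in ESCs and 60, 47 and 25 in NPCs. With intron sites as the scale, the log2 ratio of intron sites from ESCs to NPCs was 2.70 (2.02 to 3.47) for WT, 2.97 (1.90 to 4.49) for ΔZF1 and 2.43 (1.42 to 3.73) for noXL. With exon sites as the scale, that of exon sites was 0.996 (0.46 to 1.54) for WT, 1.26 (0.63 to 1.93) for ΔZF1 and 0.47 (-0.31 to 1.23) for noXL. Intron 3, of 60.8 kb, held 5, 4 and 5 sites in the ESC lists and 29, 18 and 21 in the NPC lists, whereas exon 15, of 2.84 kb, held 20 in both WT lists.

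Intron sites of several other genes were also higher in NPC WT, though not in every pair of lists. For NPC WT to ESC WT, intron sites of Pbrm1 gave 1.76 (0.76 to 2.83), from 18 and 12 sites, those of Arid1a 1.10 (0.71 to 1.49), from 102 and 110, and those of Smarca4 1.05 (0.09 to 1.99), from 16 and 18. Intron sites of Smarcc1 gave -0.03 (-0.66 to 0.56), from 30 and 72. Pbrm1 introns were higher without UV as well, at 2.16 (0.87 to 3.91), and with ΔZF1, where 13 and 1 sites gave 3.00 (1.32 to 6.47). Arid1a introns gave 0.42 (-0.08 to 0.94) with ΔZF1 and 0.43 (-0.09 to 0.95) without UV, and Smarca4 introns -0.51 (-1.67 to 0.53) and -0.01 (-0.77 to 0.72), all with intervals that included 0. Exon sites of Arid1a, Pbrm1, Smarcc1, Smarca4 and Smarcd1 gave 0.02 to 0.21, each with an interval that included 0. In the lists of all genic sites the exon share was 66.6% in ESC WT and 73.1% in NPC WT, while for the BAF genes it was 68.5% (65.1% to 71.6%) and 61.8% (57.8% to 65.6%). The genes thus held a smaller exon share in NPC WT than the list as a whole, and NPC noXL also did so, at 49.2% (43.8% to 54.7%) beside 57.4%. NPC ΔZF1 at 59.3% (54.6% to 63.8%) beside 60.4% and ESC noXL at 57.7% (52.6% to 62.7%) beside 59.8% did not differ from their lists beyond the interval, and ESC ΔZF1 at 74.4% (70.2% to 78.2%) was above its 68.1%.

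**Figure D3:**
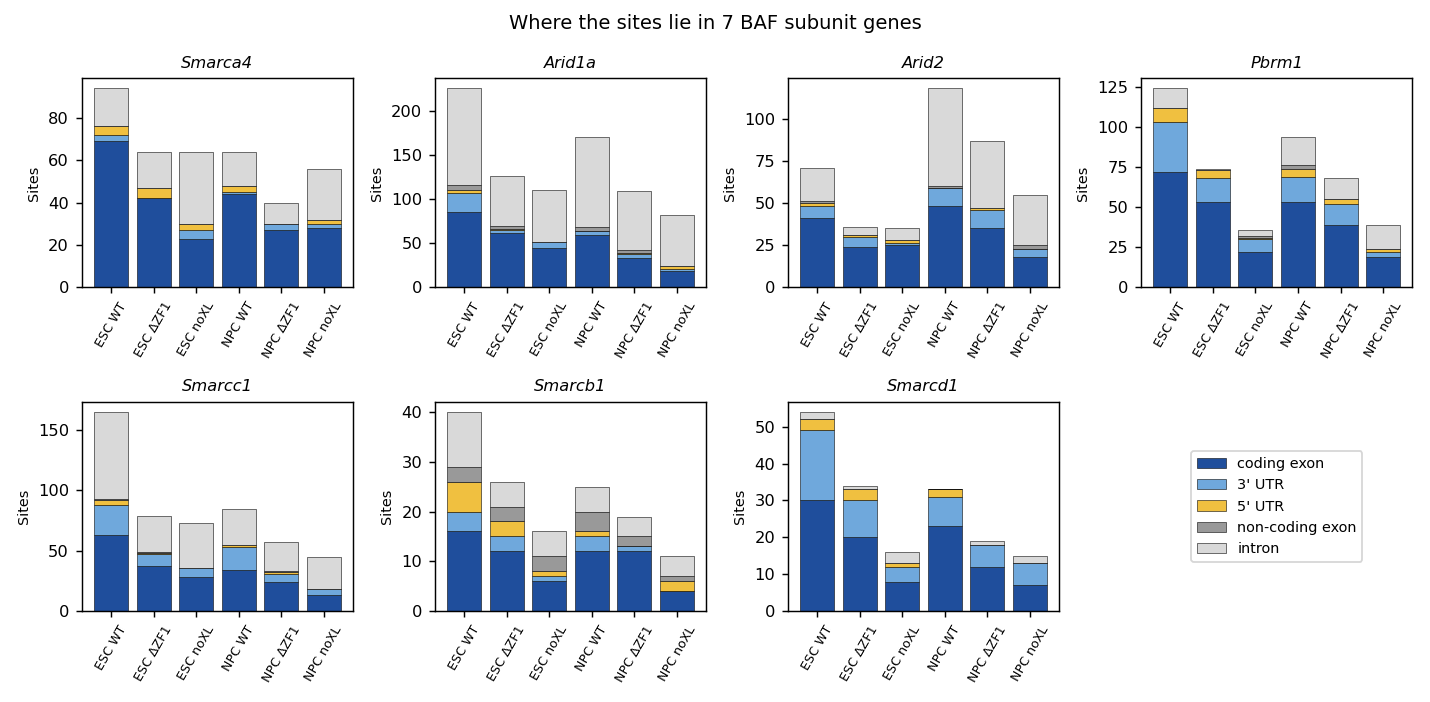
Sites (vertical axes, a scale for each gene) of 7 BAF genes in the 6 lists, stacked by where they lie in the annotated gene. Intron sites of Arid2 rise from 20 in ESC WT to 58 in NPC WT, Smarca4 has 34 intron sites of 64 in ESC noXL against 18 of 94 in ESC WT, and Smarcd1 has hardly any intron sites.

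The comparison of WT with noXL shows how far the signal on these RNAs exceeded the background without UV. With no scaling the genes held 2.15 times as many sites in ESC WT as in ESC noXL, and 1.90 times in NPCs. After scaling the log2 ratios were -0.41 (-0.58 to -0.22) in ESCs and -0.25 (-0.44 to -0.05) in NPCs, so that the genes made up a smaller share of the UV list than of the control list. With intron sites alone the NPC sum was 0.000546, so the smaller share in NPCs was not seen there. In ESCs 0 of 7 genes were past a limit, beside 8.12% higher and 6.6% lower of all 6208 genes, and in NPCs 0 of 7, beside 10.5% and 6.51% of all 4765 genes. For ΔZF1 against noXL, 0 of 8 genes were past a limit in ESCs, beside 7.86% higher and 6.56% lower of 5013 genes, and in NPCs 1 of 8 was lower, beside 8.03%, and 0 were higher, beside 7.19% of 3699 genes. The lower gene was Smarca4.

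Among the genes with enough sites, Smarca4 lay furthest below the control. Its log2 ratio was -0.96 (-1.41 to -0.50) for ESC WT to noXL, -0.98 (-1.50 to -0.47) for NPC WT to noXL and -1.06 for NPC ΔZF1 to noXL, while Pbrm1 stood at 0.25 (-0.26 to 0.81) and 0.07 (-0.44 to 0.63) in the WT comparisons. For ESC ΔZF1 to noXL the Smarca4 ratio was nearer the control, at -0.53 from 64 sites in each list. The intron sites of Smarca4 accounted for much of it in ESCs, since 18 with UV and 34 without gave -2.12 (-2.97 to -1.35) where its 76 and 30 exon sites gave -0.35 (-0.93 to 0.28). Intron 28 alone held 6 sites with WT, 10 with ΔZF1 and 15 without UV in ESCs, but 9, 6 and 4 in NPCs. In NPCs the exon sites gave -0.95 (-1.58 to -0.30) and the intron sites -1.07 (-1.99 to -0.20).

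The base under the sites told the UV lists from the controls more clearly than the counts did. Of the BAF sites, 57.3% (53.9% to 60.8%) were on a uridine in ESC WT and 62.1% (58.2% to 65.9%) in NPC WT, against 26.9% (22.6% to 31.7%) in ESC noXL and 28.4% (23.7% to 33.6%) in NPC noXL. ESC ΔZF1 lay between them at 42.9% (38.4% to 47.5%), and NPC ΔZF1 at 56.6% (51.9% to 61.1%) was close to the WT lists. Over all genic sites the shares were 60.6%, 49.2% and 28.3% in ESCs and 64.6%, 59.0% and 27.9% in NPCs, for WT, ΔZF1 and noXL. In ESC ΔZF1 the BAF genes thus fell below the list as a whole by more than their interval.

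Among the genes with at least 20 ESC WT sites, Arid2 had the highest uridine share in ESC WT, 64.8% (53.2% to 74.9%), and Smarca4 the lowest, 43.6% (34.0% to 53.7%), whose interval overlapped that of Arid2. Arid2 fell to 36.1% (22.5% to 52.4%) in ESC ΔZF1 and Arid1a from 54.4% (47.9% to 60.8%) to 36.2% (28.4% to 44.9%). Smarcc1 went from 63.6% (56.1% to 70.6%) to 55.7% (44.7% to 66.1%), with intervals that overlapped. In NPC ΔZF1 the shares of Pbrm1, 70.6%, and Smarcc1, 63.2%, were near those of NPC WT, 68.1% and 69.4%. Smarcd1 stood at 42.1% (23.1% to 63.7%) beside 72.7% (55.8% to 84.9%) and Arid1a at 49.5% (40.3% to 58.8%) beside 57.3% (49.8% to 64.5%), with intervals that overlapped.

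**Figure D4:**
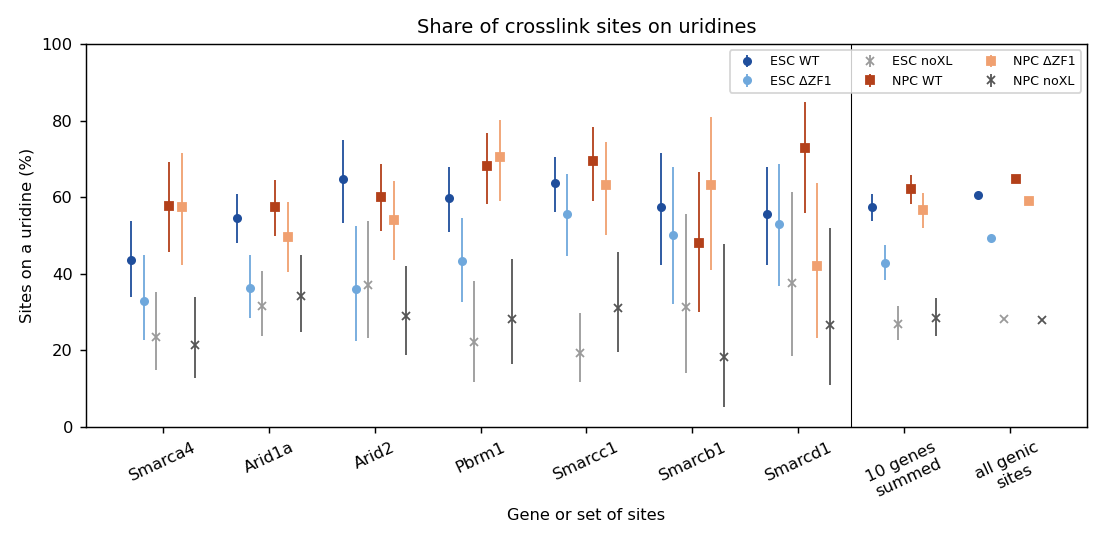
Percent of sites on a uridine with 95% Wilson intervals, for 7 BAF genes, the 10 genes summed and all genic sites, in the 6 lists. For the sum the controls lie at 26.9% and 28.4%, ESC ΔZF1 at 42.9% and the other UV lists at 56.6% to 62.1%.

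The base before a linked uridine differed in the same way. In ESC WT 56.6% (51.9% to 61.1%) of the linked uridines of the BAF genes followed another uridine, and 60.2% (55.1% to 65.0%) in NPC WT. The share was 41.3% (34.7% to 48.3%) in ESC ΔZF1 and 54.1% (47.8% to 60.2%) in NPC ΔZF1, and 22.4% (15.3% to 31.7%) and 32.2% (23.5% to 42.4%) in ESC and NPC noXL. Over all genic sites ESC ΔZF1 stood higher, at 53.4%. A run of 4 uridines, searched as TTTT on the gene's strand in the 21-nt windows of all sites of these genes, was in 20.3% (17.6% to 23.3%) of windows in ESC WT, 10.9% (8.40% to 14.1%) in ESC ΔZF1 and 10.99% (8.17% to 14.6%) in ESC noXL. All genic windows held it in 21.05%, 15.3% and 10.8%, so that in ESC ΔZF1 the BAF genes lay below the list as a whole and did not differ from the control beyond their intervals. In NPCs the run was in 16.8% (14.0% to 19.97%) of windows with WT, 12.9% (10.0% to 16.3%) with ΔZF1 and 10.7% (7.78% to 14.6%) without UV, beside 18.2%, 15.96% and 11.03% of all genic windows, each inside the interval of the BAF genes.

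**Figure D5:**
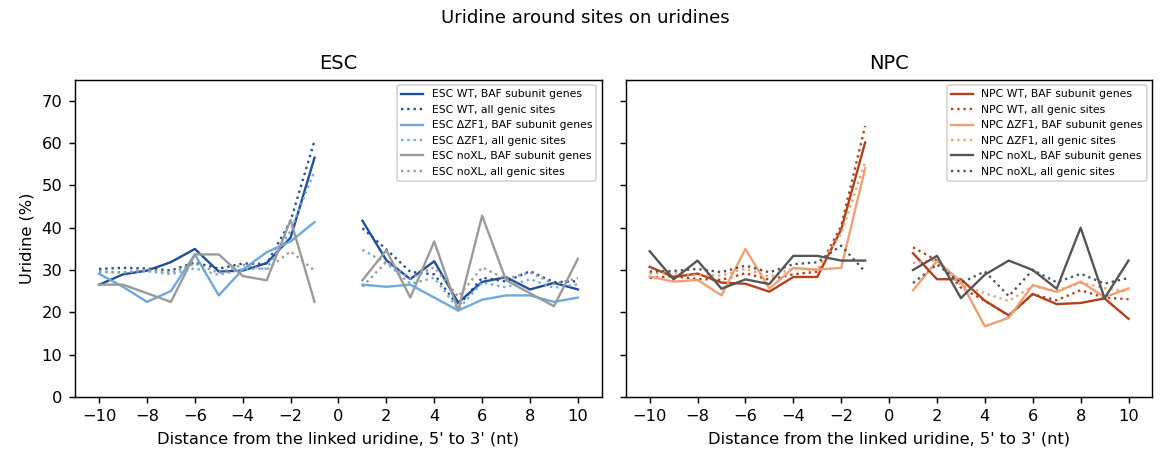
Percent of uridine at each distance from the linked base, 5′ to 3′, around sites on uridines in the BAF genes (solid) and in all genic sites (dotted), for ESCs and NPCs. One base before the site, uridine reaches 56.6% in ESC WT and 60.2% in NPC WT for the BAF genes and 22.4% and 32.2% without UV; single positions of the noXL lines rest on 98 and 90 sites.

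Sites recurred at the same place only in part. Of the ESC ΔZF1 sites in the BAF genes, 76 of 457 or 16.6% (13.5% to 20.3%) lay within 5 nt of an ESC WT site, beside 24.2% of all genic ΔZF1 sites and 2.41% when the positions were shifted by 500 and 1000 nt. In NPCs the share was 13.1% (10.3% to 16.6%), as over all genic sites at 13.1%. By gene the ESC share ran from 2.78% of 36 Arid2 sites (0.492% to 14.2%) to 32.4% of 34 Smarcd1 sites (19.1% to 49.2%). Within 50 nt, 61.9% of the ESC ΔZF1 sites had a WT neighbour, beside 61.8% of all genic sites, so that the sites lay in the same stretches at the usual rate but less often at the same base. WT sites lay within 5 nt of a noXL site in 7.92% of cases in ESCs (6.23% to 10.0%), beside 7.67% of all genic sites, and 4.65% in NPCs (3.24% to 6.64%), beside 5.64%.

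Smarcc1 held most of the sites that recurred in every UV list, though they lay in a few short stretches. Of the ESC WT sites of all 10 genes, 17 or 2.17% had a neighbour within 5 nt in each of the other UV lists, close to the 1.99% of all genic sites, 10 of them in Smarcc1, 4 in Pbrm1 and 3 in Smarcd1. Of these, 11 had no noXL site near them, namely all 10 of Smarcc1 and 1 of Pbrm1, and for the 10 genes together this is 1.40% of ESC WT sites beside 0.939% of all genic sites. In Smarcc1 the 10 sites lay at 6 positions of exon 1 and 4 of exon 12, the latter at 110175073 to 110175075 and 110175080. Neighbouring bases count as separate sites here, so these numbers and shares do not count separate places. The exon 1 positions were 110132059 and 110132060 in the 5′ UTR and 110132237 to 110132240, inside the Smarcc1 window printed above, with scores up to 46.9. None of the 783 sites had a neighbour in all 6 lists, beside 0.567% of all genic sites.

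Within the genes, a few exons and introns held much of the signal. Intron 1 of Arid1a, of 29.4 kb, held 81, 41 and 40 sites in the ESC lists and 72, 37 and 39 in the NPC lists, and exon 20, with the end of the coding sequence and the 3′ UTR, held 43, 15 and 18 and then 18, 9 and 6. Intron 13 of Smarcc1, of 5.42 kb, held 33, 17 and 12 sites in ESCs and 7, 8 and 13 in NPCs. Both introns thus held sites without UV as well, and for intron 1 of Arid1a their number was about that of the ΔZF1 lists. In Pbrm1 112 of 124 ESC WT sites were in exons, in Smarcd1 52 of 54, and the last exon of Smarcd1 held 20.

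The BAF sites were of ordinary or low score. In ESC WT 5.24% of them (3.88% to 7.03%) were in the top 10% of the list's scores, beside 9.08% of all genic sites, and in NPC WT 4.98% (3.51% to 7.02%) beside 9.16%. In NPC ΔZF1 the share was 8.05% (5.84% to 10.98%) beside 9.52%. Coding exons held 48.1% (44.7% to 51.6%) of the ESC WT sites, beside 36.3% of all genic sites, and non-coding exons 1.28% beside 5.91%. The 10 genes all code for protein, while all genic sites include non-coding genes, so such gaps follow in part from the choice of genes. Coding exons also held more without UV, 44.5% beside 33.8% in ESC noXL and 38.2% beside 31.8% in NPC noXL. The opposite strand of the 10 gene bodies held 0 to 3 sites a list.

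A further 20 genes of BAF subunits were read as a list. Of these, 6 had no site in any list, namely Smarcd3, Actl6b, Dpf1, Dpf3, Bcl11a and Bcl11b, several of which belong to BAF forms of neurons or muscle. Actl6a, an actin-related core subunit, had 81 ESC WT sites, Brd7 of PBAF 78 and Ss18, a subunit of canonical and non-canonical BAF, 73. Between ΔZF1 and WT, 2 of 10 genes were higher in ESCs, beside 6.84% of all genes, Bicral of non-canonical BAF at 2.90 (1.99 to 4.05) with 37 against 9 sites and Bcl7a at 1.24 (0.26 to 2.26). Bicral passed the minimum only through its ESC ΔZF1 sites. Bcl7a had 17 against 14 sites, of which neither number alone reached the minimum. In NPCs 1 of 7 was lower, beside 7.36%, namely Dpf2 at -1.41 (-2.71 to -0.41), whose 7 sites against 31 passed the minimum only through the WT list. From ESC WT to NPC WT 2 of 9 were higher, beside 11.5%, Bcl7a at 1.45 (0.53 to 2.44) and Smarce1 at 1.04 (0.48 to 1.62). Bcl7a, with 21 against 14 sites, passed the minimum only through the NPC WT list in which it was high. For ESC WT to noXL, 1 of 9 was lower, beside 6.6%, and 0 were higher. It was Bicral at -2.09 (-3.32 to -0.97), from 9 and 14 sites, of which neither number alone reached the minimum.

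With ΔZF1, 2 of 9 of the further genes were higher in NPCs than in ESCs and 4 were lower, beside 10.9% and 14.1% of all genes. Phf10 of PBAF at 1.20 (0.44 to 2.02) and Smarce1 at 1.06 (0.13 to 2.05) were higher. Smarce1, with 21 against 14 sites, passed the minimum only through the NPC ΔZF1 list in which it was high. Smarcd2 at -1.63 (-3.36 to -0.41), Actl6a at -1.16 (-2.20 to -0.29), Dpf2 at -1.02 (-2.34 to 0.05), whose interval included 0, and Bicral, with 0 sites against 37, were lower. All 4 reached the minimum only through the ESC ΔZF1 list in which they were high, so that their count is a description. For ESC ΔZF1 to noXL, 1 of 9 was higher, beside 7.86%, and 1 lower, beside 6.56%. Bcl7a at 1.32 (0.05 to 3.06), from 17 and 4 sites, passed the minimum mostly through the list in which it was high. Smarce1 was at -1.43 (-2.39 to -0.56), and the median of its chromosome, 11, was -0.46 in the same comparison. Its 14 sites with ΔZF1 against 27 without UV passed the minimum only through the noXL list in which it was high. For NPC ΔZF1 to noXL, 1 of 5 was higher, beside 7.19%, namely Phf10 at 1.18 (0.25 to 2.33), and 0 were lower. Its 33 sites with ΔZF1 against 9 without UV also passed the minimum only through the higher list. The 9 CHD genes, remodellers of another family, gave medians of 0.04 for ESC ΔZF1 to WT and 0.38 for NPC WT to ESC WT, beside 0.24 and 0.35 for the BAF genes described above. The genes whose 6 scaled counts were nearest to those of the summed BAF genes, out of 6038 genes with at least 50 sites, were Yap1, Cenpe and Zbtb20, at distances of 0.145, 0.174 and 0.175 on the log2 scale.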

How the data were processed

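Per the study's methods, the authors used Flexbar for trimming, STAR for alignment to mm10 and UMI-tools to collapse PCR copies, pooled each group's libraries, and called crosslinked nucleotides with PureCLIP. Tool versions are not given in the sources used here. The deposited value of a site is its PureCLIP score, which is not scaled to depth. Peaks seen in several replicates were not used here.

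Sites were assigned by strand to GENCODE M21 genes on GRCm38, the build also called mm10, and a site in several annotated parts was taken as coding first, then 3′ UTR, then 5′ UTR, then exon of a non-coding transcript, and otherwise as intron. Exon and intron numbers are those of the principal transcript. Bases were read from the RefSeq GRCm38 genome. Ratios were scaled to genic sites, with a pseudocount of 1, a minimum of 20 sites and limits of 1 and -1. Shared sites lay within 5 nt on the same strand. Depth is unknown, and each list's number of sites sets the width of its intervals. The labels number the libraries as replicates and the paper calls them biological replicates.

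The genes, lists and rules were chosen with earlier results of these data known. All 10 genes are named. Of the 20 further subunits those past a limit and the 3 with most ESC WT sites are named, as well as those without sites, which were added after their values were seen. Nearest genes were ranked by Euclidean distance of centred log2 values. Alternatives changed the scaling, score minimum, bases, exon or intron sites, merging within 8 nt, pseudocount and minimums. The calculations were tested on simulated data. Software was scipy 1.17.1, numpy 2.4.6, matplotlib 3.10.9, pysam 0.24.0 and pandas 2.3.3 under Python 3.11.15.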

Additional observations from a re-analysis of the deposited data

How the results depend on the processing

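No paired analysis was possible because each group exists as a single merged list, which also left no replicate to leave out. Of 103 recomputed summed log2 ratios, 80 stayed inside the interval of the reported value. Of 64 recomputed values for the 6 single-gene ratios past a limit, 55 were past the same limit, and 0 turned the direction. Of all 724 recomputed single-gene values, 81 left the interval of the reported value.

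Without scaling, the summed log2 ratios were -0.78 for ESC ΔZF1 to WT, -0.47 for NPC ΔZF1 to WT, -0.38 for NPC WT to ESC WT, 1.10 for ESC WT to noXL and 0.92 for NPC WT to noXL, and -0.071, -0.20 and 0.33 for NPC to ESC with ΔZF1, NPC to ESC noXL and ESC ΔZF1 to noXL. The scaled signs thus hold relative to the lists and not for the raw numbers. With a score of at least 3.02 the sums were 0.42 for ESC ΔZF1 to WT, 0.75 for NPC WT to ESC WT and -0.66 for ESC WT to noXL. With exon sites they were 0.33 for NPC ΔZF1 to WT and 0.24 for NPC WT to ESC WT. With intron sites they were -0.026, -0.34 and 1.11 for ESC ΔZF1 to WT, NPC ΔZF1 to WT and NPC WT to ESC WT, and 0.000546 for NPC WT to noXL. The sum without Arid2, added after the data were seen, was 0.34 for NPC WT to ESC WT.

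The number of genes past a limit for ESC ΔZF1 to WT was 1 without scaling and 1 with a minimum of 10 sites. For NPC ΔZF1 to WT it was 0 with uridine, exon or intron sites or a minimum of 50 sites, where Arid1b had too few, and 2 with a minimum of 10. For NPC WT to ESC WT it was 0 without scaling and with exon sites, 4 with intron sites and 2 at a limit of 0.5. For ESC WT to noXL it was 6 without scaling, 2 with the score minimum and at a limit of 0.5, and 1 with uridine sites, intron sites or a minimum of 10. For NPC WT to noXL it was 5 without scaling and 1 under the median scaling, the score minimum, intron sites, merged regions, a minimum of 10 and a limit of 0.5. The share of all genes past a limit was not computed for these settings, so the counts have no background beside them. Without scaling they also hold the difference in list length, such as 429119 genic sites in ESC WT against 150821 in ESC noXL.

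With the score minimum the exon share was 71.9% in ESC WT, 68.8% in NPC WT and 41.8% in NPC noXL. At the same nucleotide and within 50 nt, the share of ΔZF1 sites near WT sites was 4.60% and 61.9% in ESCs and 4.14% and 39.1% in NPCs, and that of WT sites near noXL sites 2.17% and 29.4% in ESCs and 0.664% and 20.4% in NPCs. Where no cause is given in the construction of the alternative, the cause was not tested. Genes with under 40 sites in a list, such as Smarcb1, Smarcd1 and Brd9, have wide intervals. The same holds for Arid1b in every list, and for Arid2 in ESC ΔZF1 and ESC noXL, with 36 and 35 sites. Pbrm1 had 36 and 39 sites in ESC and NPC noXL.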
